A study of Mus musculus with 6 samples.

Results

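The segments described here were the variable (V) and joining (J) gene segments of the T cell receptor alpha and beta chains in bone marrow (BM) regulatory T cells (Tregs). A row of the 6 deposited tables was counted as a segment when its name began with Trav, Traj, Trbv or Trbj followed by a digit, a rule on the name alone. Of 36930 features, 198 were segments, of which 112 were Trav, 51 Traj, 22 Trbv and 13 Trbj. The name Trav16n stood on a pair of rows, which were kept apart. CML Tregs came from 3 mice with chronic myeloid leukemia (CML) and naive Tregs from 3 mice without it. All mice were of the Foxp3-DTR-GFP genotype, in which the Foxp3 locus drives a diphtheria toxin receptor fused to GFP, and all were at postnatal week 8. CML was induced without irradiation by i.v. injection of syngeneic lineage-negative Sca-1+ c-Kit+ cells (LSKs) that had been transduced with a BCR-ABL1-GFP retrovirus, so that leukemic cells carry GFP as well, and Tregs were sorted as CD4+ Foxp3-GFP+ cells. Naive mice served as controls without leukemia.

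Each T cell builds its receptor by joining 1 V to 1 J segment, with a D segment between them in the beta chain, and the joined exon is spliced to a constant gene, Trac for alpha and Trbc1 or Trbc2 for beta. A population of many clones therefore transcribes most segments, while a single expanded clone transcribes few. The alpha locus can rearrange repeatedly in 1 cell, which moves use from the J segments near the V segments to those near Trac. Tregs use the same segments as other CD4+ T cells, whereas the invariant receptors of natural killer T (NKT) cells join Trav11 to Traj18 and those of mucosal-associated invariant T (MAIT) cells join Trav1 to Traj33.

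The J segments on which the results turn are shown with their GENCODE M21 sequences (GRCm38, plus strand), with the 12 bases that encode the phenylalanine or tryptophan, glycine, any residue, glycine motif of J segments in capitals where a reading frame without a stop codon held it. The motif was found in 44 of 51 Traj and 11 of 13 Trbj segments. Traj18, at chr14:54200777-54200842, and Trbj1-5, at chr6:41535084-41535133, were the segments past the threshold of the test across all features.
Traj18: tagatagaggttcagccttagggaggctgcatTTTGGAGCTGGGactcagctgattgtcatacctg
Trbj1-5: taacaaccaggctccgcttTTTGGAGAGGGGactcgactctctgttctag
Traj44, at chr14:54173690-54173750, and Traj16, at chr14:54203134-54203194, had reads in naive and in no CML library, and Traj35, at chr14:54183774-54183838, had reads in CML and in no naive library.
Traj44: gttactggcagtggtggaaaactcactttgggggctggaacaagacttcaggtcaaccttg
Traj16: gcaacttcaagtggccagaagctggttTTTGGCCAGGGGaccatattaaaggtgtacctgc
Traj35: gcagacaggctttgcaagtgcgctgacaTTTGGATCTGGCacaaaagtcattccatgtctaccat
Traj12, at chr14:54206553-54206610, Traj21, at chr14:54198790-54198846, Trbj2-7, at chr6:41543810-41543856, and Trbj2-1, at chr6:41542754-41542803, were the most used segments of their classes by mean share over the libraries.
Traj12: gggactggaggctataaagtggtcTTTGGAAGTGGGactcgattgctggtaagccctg
Traj21: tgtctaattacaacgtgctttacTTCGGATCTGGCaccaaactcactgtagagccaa
Trbj2-7: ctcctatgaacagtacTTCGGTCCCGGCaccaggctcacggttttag
Trbj2-1: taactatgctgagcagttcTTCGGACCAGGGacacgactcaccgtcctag
Traj33, at chr14:54185358-54185414, is the joining segment of MAIT cells, and Trbj1-7, at chr6:41535642-41535687, held no copy of the motif.
Traj33: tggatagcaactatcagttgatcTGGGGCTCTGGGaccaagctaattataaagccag
Trbj1-7: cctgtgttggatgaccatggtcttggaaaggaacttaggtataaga

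The depth behind the segments differed greatly between libraries. Values were read as RPKM, and 1 read corresponded to a fixed step of value times length in each library. The steps gave 7613439, 829201 and 2286146 reads for CML replicates 1 to 3 and 5188375, 8771715 and 9751229 for naive replicates 1 to 3. The reads on segments of all 4 classes were 4720, 417 and 1495 in CML and 3571, 6598 and 6707 in naive Tregs. CML replicate 2 thus held the fewest reads of any library, and its absent segments are given beside each count below. All J segments, of 46 to 66 bases, were shorter than a 76-base read, so that each J read also covered neighbouring sequence and J levels per length were not set against V levels. Of the 112 Trav segments, 55 had under 50% of their 76-base windows to themselves, because the locus holds near-identical copies marked d or n, and the split of reads among such copies is uncertain. All 22 Trbv segments were unique in every window.

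The defining markers of the labelled cell type were present in all libraries. Foxp3, the defining transcription factor of Tregs, lay between 297 and 468 RPKM, and none of the 5 Treg markers passed the threshold. The B cell transcription factor gene Pax5 and the gamma delta segments Trdv4 and Trgv2 were at 0 in every library, and the 6 measured gamma delta genes summed to at most 7.84 RPKM. The B cell receptor chain Cd79b was at 8.80, 0 and 3.18 RPKM in CML and 8.42, 7.97 and 8.06 RPKM in naive Tregs, its partner Cd79a had values of 7.28 RPKM in CML replicate 2 and 1.08 RPKM in naive replicate 3, and Ms4a1 one of 2.73 RPKM in naive replicate 2, with 0 elsewhere for both. Cd8b1, a chain of the CD8 coreceptor, lay between 23.4 and 66.8 RPKM with overlapping groups, and Cd8a, the other chain, between 2.75 and 15.4 RPKM. The 8 neutrophil and precursor genes summed to 8.77, 203 and 212 RPKM in CML and 23.5, 53.3 and 48.3 RPKM in naive Tregs. The 7 measured erythroid genes summed to 122, 35.6 and 204 RPKM in CML and 28.4, 29.6 and 5.01 RPKM in naive Tregs, so that all CML sums lay above all naive sums. At an unadjusted p under 0.05 with a fold of 1.5 in limma, 3 of 6 tested erythroid and 1 of 7 tested neutrophil genes were higher. Of all features, 2.61% were. None of these marker genes passed the threshold. The part of these other cell types in the segment levels was not tested.

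The summed level of the beta chain V segments was lower in every CML library than in any naive library, whereas the sums of the alpha chain segments overlapped. It was 579, 443 and 609 RPKM in CML and 852, 929 and 701 RPKM in naive Tregs. The Trbv mean was 544 ± 88.1 against 827 ± 116 RPKM (SD, n = 3), a ratio of 0.657. The summed Trbj level was 882, 547 and 1132 RPKM in CML and 1654, 1661 and 1113 RPKM in naive Tregs, so that CML replicate 3 and naive replicate 3 overlapped. The ratio of the Trbj means was 0.578. For Trav, the sums were 694, 731 and 686 RPKM in CML and 528, 676 and 694 RPKM in naive Tregs, with overlapping groups and a ratio of 1.11. Traj sums of 2317, 1244 and 2658 RPKM in CML and 2185, 1975 and 2578 RPKM in naive Tregs also overlapped, with a ratio of 0.923. Divided by the constant genes of their chain, the log2 ratio of the means was -0.43 for Traj and -0.066 for Trav, and it was -0.11 for Trbv and -0.33 for Trbj. These sums over segments were described and not tested, and in sorted bulk RNA fewer cells that use a segment and less RNA per cell cannot be told apart.

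**Figure D1:**
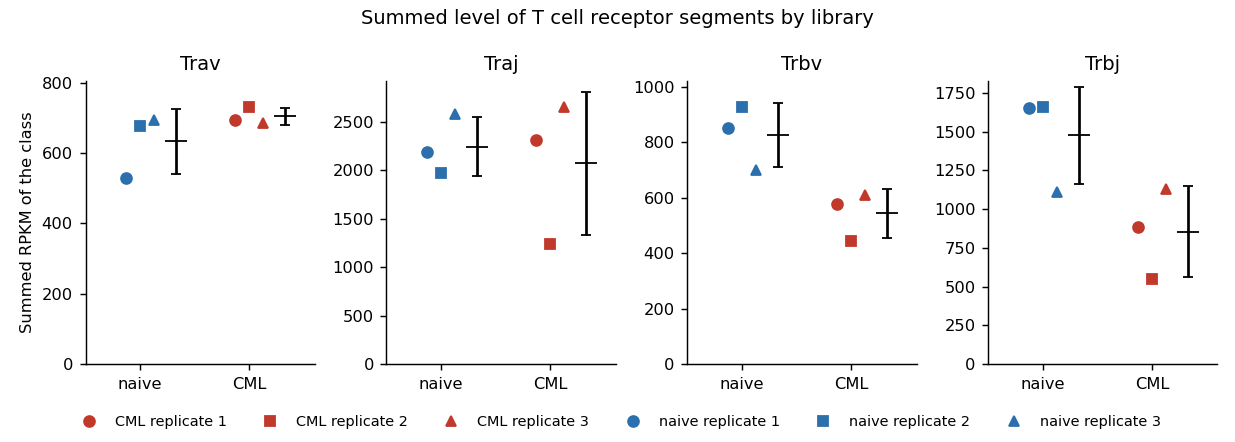
Summed RPKM of the Trav, Traj, Trbv and Trbj segments (y axes, each from 0) in naive (blue) and CML (red) Tregs. Points are single libraries, and the dash with bars is the mean ± SD of 3. The 3 CML points lie below the 3 naive points for Trbv, while the groups overlap for the other classes.

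The constant genes showed the same division between the chains. Trbc1 was at 288, 172 and 332 RPKM in CML and 384, 429 and 377 RPKM in naive Tregs, and Trbc2 at 346, 313 and 403 RPKM against 476, 508 and 410 RPKM. For both genes all CML libraries were below all naive libraries, although neither passed the threshold (log2 fold change -0.64 ± 0.24 (SE), adjusted p = 0.47 for Trbc1 and -0.39 ± 0.16, adjusted p = 0.489 for Trbc2 by limma with Benjamini-Hochberg adjustment). Of all features tested, 12.2% were lower in CML without overlap, and the median log2 fold change over them was -0.18. Trac was at 642, 477 and 675 RPKM in CML and 450, 571 and 481 RPKM in naive Tregs, with overlap and a log2 fold change of 0.25 ± 0.18 (adjusted p = 0.684 by limma). The ratio of Trbc1 plus Trbc2 to Trac, which was chosen after the values were seen, was 0.986, 1.02 and 1.09 in CML and 1.91, 1.64 and 1.64 in naive Tregs. Its mean was 1.03 ± 0.053 in CML and 1.73 ± 0.157 in naive Tregs (SD, n = 3), and an exact two-sided permutation test gave p = 0.1, the smallest value that 3 against 3 libraries allow. Because the ratio was chosen with the values known, this p adds nothing to the lack of overlap. With the 4 CD3 chains Cd3d, Cd3e, Cd3g and Cd247, which carry the receptor's signal, as the denominator, the beta constant genes stood at 0.631, 0.549 and 0.662 in CML and 1.09, 0.954 and 0.868 in naive Tregs (exact permutation p = 0.1). Trac over the same chains was 0.64, 0.541 and 0.608 in CML and 0.569, 0.582 and 0.531 in naive Tregs, and these overlapped (exact permutation p = 0.4). The CD3 denominator was also chosen after the values were seen.

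The V segments followed the constant genes, and the J segments did so in part. Summed Trbv over summed Trav was 0.834, 0.606 and 0.888 in CML and 1.61, 1.37 and 1.01 in naive Tregs, without overlap. For the J segments, summed Trbj over summed Traj was 0.381, 0.439 and 0.426 in CML and 0.757, 0.841 and 0.432 in naive Tregs, where naive replicate 3 lay among the CML libraries. The 4 CD3 chains and 15 genes of proximal receptor signalling, among them the kinases Lck and Zap70 and the adaptor Lat, held no gene past the threshold or at an unadjusted p under 0.05 with a fold of 1.5. The median log2 fold change of the 15 signalling genes was -0.08, compared with -0.18 over all 13923 features tested. Of the recombination and pre-receptor genes, Rag1 and Rag2, which cut the DNA between segments, were under 1 RPKM in every library, Dntt, which adds bases at the joints, was between 11.1 and 38.6 RPKM, and Ptcra, the pre-receptor alpha chain, had values of 11.7 RPKM in CML replicate 2, 1.55 RPKM in naive replicate 1 and 0 elsewhere.

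**Figure D2:**
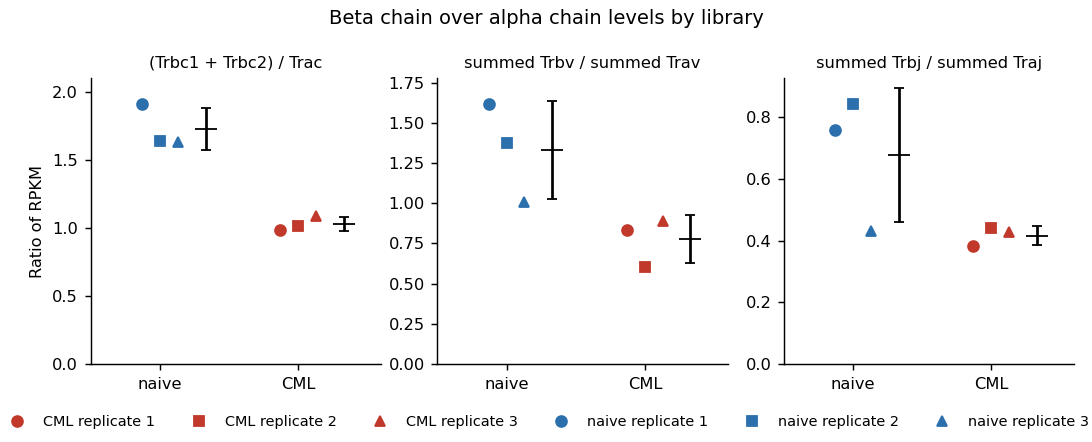
Ratio of beta chain to alpha chain RPKM (y axes, each from 0) for constant genes, V segments and J segments in naive (blue) and CML (red) Tregs, with single libraries as points and the mean ± SD of 3 beside them. CML libraries lie below all naive libraries for the constant genes and the V segments, and naive replicate 3 lies among them for the J segments.

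Segment by segment, 2 of the 183 segments whose mean reached 1 RPKM passed an adjusted p under 0.05 with a fold of at least 1.5 in limma, and both were lower in CML Tregs. The share over all features was 0.172%, or 24 of 13923. At an unadjusted p under 0.05 with the same fold, 6 segments were higher, where 2.61% of all features were, and 20 were lower, where 5.94% of all features were. Of these 20, 4 were Trav, 7 Traj, 5 Trbv and 4 Trbj. The median log2 fold change of the tested segments was -0.58, and it was -0.24 for 100 Trav, -1.70 for 49 Traj, -0.95 for 21 Trbv and -1.53 for 13 Trbj segments, compared with -0.18 for all features. Values of 0 enter these class medians. CML replicate 2 lacked 20 of 35 Traj and 7 of 13 Trbj segments that had reads in all naive libraries. The ratio of the summed Traj means was 0.923. Class medians without that library were not taken. Without CML replicate 2 the median over segments was -0.30 and that over all features -0.03. At an unadjusted p under 0.05 with the same fold, 7 of 183 segments were then higher and 24 lower. Of all 13923 features, 677 were higher and 781 lower in that setting. The segment median was -1.02 with a pseudocount of 0.1, -1.92 with 0.001 and -0.33 with quantile normalization.

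Traj18, the joining segment of the invariant NKT receptor, had 11, 10 and 21 reads in the naive libraries and none in any CML library. Its naive levels were 32.1, 17.3 and 32.6 RPKM, a mean of 27.3 ± 8.72 RPKM (SD, n = 3). The groups did not overlap (adjusted p = 0.0151 by limma). Traj18 passed the filter of 1 RPKM through its naive reads alone, and its 3 CML values of 0 have no spread. The adjusted p therefore does not measure the spread of CML Tregs for this segment. With a floor of 3 reads per library, the naive mean was at least 4.58-fold above CML replicate 1 and at least 1.38-fold above CML replicate 3. The floor of CML replicate 2, 54.8 RPKM, lay above the naive mean. Naive replicate 2 itself lay under the floor of CML replicate 3, 19.9 RPKM. At the mean naive rate, 13.7, 1.5 and 4.13 reads would have fallen in CML replicates 1 to 3. The call was lost without CML replicate 3 (adjusted p = 0.0771 by limma), without naive replicate 1 (0.12), without naive replicate 2 (0.175) and without naive replicate 3 (0.136). It was also lost with the replicate block (0.088), with no filter on low values (0.103) and with a pseudocount of 0.001 (0.106).

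The variable segment of the same receptor, Trav11, had 5, 0 and 0 reads in CML and 2, 4 and 3 reads in naive Tregs, all at or under 1.92 RPKM. It was below the filter, and all its 76-base windows also occur in Trav11d or Trav11n. Summed over these 3 copies the level was 2.68, 7.03 and 2.55 RPKM in CML and 3.37, 4.99 and 1.79 RPKM in naive Tregs, with overlap and CML replicate 2 highest. The MAIT segments did not separate the groups either. Traj33 was at 46.1, 0 and 92.1 RPKM in CML and 122, 34 and 66.6 RPKM in naive Tregs (adjusted p = 0.689 by limma). Trav1 was at 0, 0 and 7.91 RPKM in CML and 5.22, 0 and 5.25 RPKM in naive Tregs (adjusted p = 0.841), so that 1 naive library lacked it as well.

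Trbj1-5 had 15, 8 and 7 reads in the naive libraries and none in CML. Its naive levels of 57.8, 18.2 and 14.4 RPKM gave a mean of 30.1 ± 24.1 RPKM (SD, n = 3), with naive replicate 1 far above the others (adjusted p = 0.0365 by limma). As for Traj18, naive reads alone brought it past the filter, and its CML values of 0 have no spread for the test to measure. Against the floor of 3 reads, the naive mean was at least 3.82-fold above CML replicate 1 and at least 1.15-fold above CML replicate 3. It lay under the floor of CML replicate 2, 72.4 RPKM. Naive replicates 2 and 3 themselves lay under the floor of CML replicate 3, 26.2 RPKM. Leaving out any 1 of the 6 libraries ended this call, with adjusted p values of 0.121, 0.0814 and 0.177 without CML replicates 1 to 3 and 0.12, 0.288 and 0.176 without naive replicates 1 to 3 (limma).

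Traj35 was the segment with reads in CML libraries alone. It had 12, 0 and 5 reads in CML and none in any naive library, at 24.3, 0 and 33.7 RPKM, with 1 CML library also at 0. It had an adjusted p of 0.47 by limma with all libraries and passed the threshold, at 0.0354, without CML replicate 2. It was named after its values were seen.

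Counted over all 198 segments, 3 had no reads anywhere, namely Traj29, Traj59 and Trav3n-2, and 77 had reads in all 6 libraries. Reads in all 3 naive and no CML library were found for 3 of the 195 segments with reads, Traj18, Trbj1-5 and Trav6-2, where 1.96% of all features with reads showed this pattern. The opposite pattern was found for 0 segments, and for 0.0146% of all features. Trav6-2 rested on 1, 1 and 15 naive reads, with a mean of 1.80 ± 2.35 RPKM (SD, n = 3) that exceeded the floor of 3 reads in CML replicate 1 only, by at least 1.56-fold. Besides Traj18, Trbj1-5 and Trav6-2, reads in at least 1 naive library and none in CML were found for Traj5, Traj16, Traj44, Traj56, Trav2, Trav6-1 and Trav18. These were named after their values were seen. The share of all features with this looser pattern was not counted. Traj44 had 0, 10 and 14 and Traj16 0, 8 and 16 reads in naive replicates 1 to 3, so that naive replicate 1 lacked both.

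Absence of single segments was most frequent in the 2 libraries with the fewest reads. Of the 158 segments with reads in all 3 naive libraries, CML replicate 1 lacked 8 (5.06%), CML replicate 2 lacked 61 (38.6%) and CML replicate 3 lacked 42 (26.6%). For all 14801 features with reads in all naive libraries the same shares were 4.78%, 19.0% and 11.4%. In CML replicate 2, 20 of 35 such Traj and 7 of 13 such Trbj segments were without reads, compared with 5 of 21 Trbv and 29 of 89 Trav segments. There were 37 segments missing from CML replicate 2 alone and 16 from CML replicate 3 alone, whereas 1, 1, 0 and 1 were missing only from CML replicate 1 and naive replicates 1 to 3. Among all 36930 features, 1490 and 460 were missing from CML replicates 2 and 3 alone. Those missing only from CML replicate 1 and naive replicates 1 to 3 numbered 68, 70, 34 and 17.

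**Figure D3:**
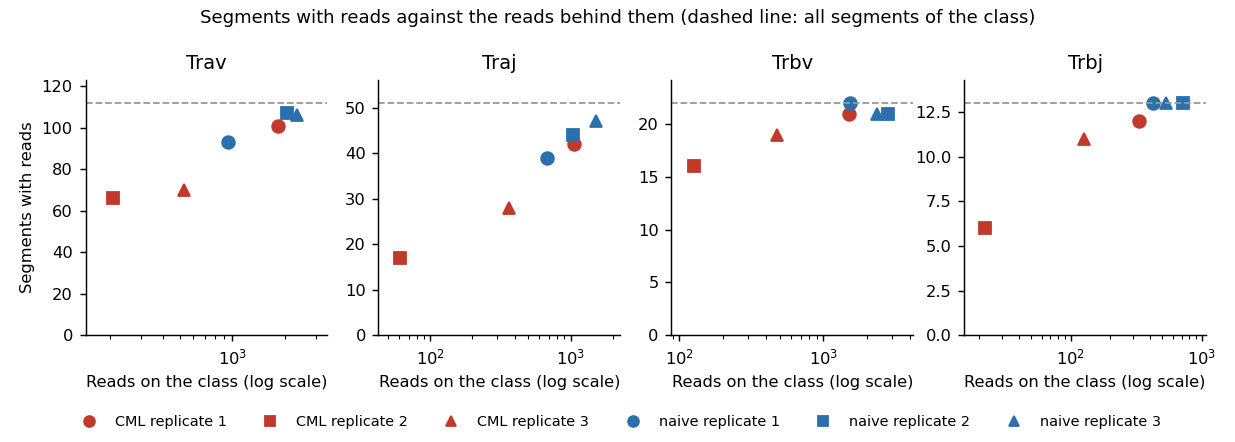
Number of segments with reads (y axes) against the reads on the class (x axes, log scale) in naive (blue) and CML (red) libraries for Trav, Traj, Trbv and Trbj, with the number of segments of each class as a dashed line. CML replicates 2 and 3 have the fewest reads and the fewest segments in each class, and CML replicate 1 lies near the naive libraries.

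The number of segments used therefore had to be read at equal depth. As deposited, CML libraries had reads on 42, 17 and 28 Traj segments and naive libraries on 39, 44 and 47. Drawn down to the 61 Traj reads of CML replicate 2, the expected numbers were 24.5, 17 and 20.7 in CML and 24.6, 26.2 and 26.6 in naive Tregs, so that all CML libraries lay below the naive libraries, CML replicate 1 by a margin of 24.5 against 24.6. With the 5 other libraries drawn to the 363 reads of CML replicate 3, Traj numbers were 38.4 and 28 in CML and 36.2, 42.3 and 43.3 in naive Tregs, and the groups overlapped. Trav segments with reads numbered 101, 66 and 70 in CML and 93, 107 and 106 in naive Tregs. At 208 reads the expected numbers were 71.9, 66 and 58.7 in CML and 67.9, 76.2 and 76.6 in naive Tregs, with overlap. CML replicate 3, not the shallower CML replicate 2, had the lowest number of Trav segments at equal depth.

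The same comparison was made for the beta chain. Trbv segments with reads numbered 21, 16 and 19 in CML and 22, 21 and 21 in naive Tregs, and at 126 reads 19.1, 16 and 17.7 in CML and 18.9, 18.8 and 19.2 in naive Tregs. Trbj segments numbered 12, 6 and 11 in CML and 13 in each naive library, and at 22 reads 9.58, 6 and 8.45 in CML and 9.42, 9.38 and 9.55 in naive Tregs. In both classes at these depths CML replicates 2 and 3 were below all naive libraries. CML replicate 1 lay among the naive libraries for Trbv and above them for Trbj. Without CML replicate 2 and at 127 reads, Trbj numbers were 11.98 and 11 in CML and 12.8, 12.7 and 12.8 in naive Tregs, so that CML replicate 1 too was below all naive libraries. For Trbv, drawn to 475 reads in the same libraries, the groups overlapped. The Trbv numbers were 20.8 and 19 in CML and 21.6, 20.6 and 20.7 in naive Tregs.

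Evenness of use was measured as the effective number of segments, the exponential of the Shannon entropy, which equals the number of segments that would give the same diversity if all were used equally. For Traj it was 25.1, 13.0 and 19.2 in CML and 26.1, 28.3 and 28.1 in naive Tregs, with every CML library below every naive library and means of 19.1 ± 6.05 and 27.5 ± 1.23 (SD, n = 3). For Trav it was 70.5, 48.9 and 46.5 in CML and 63.7, 77.2 and 79.9 in naive Tregs, for Trbv 15.8, 10.4 and 13.3 against 15.2, 14.2 and 15.4, and for Trbj 10.7, 4.66 and 8.60 against 10.4, 10.4 and 10.5. In these 3 classes CML replicate 1 lay among or above the naive libraries. The effective number is itself lowered by few reads, and the spread among CML libraries was larger than that among naive libraries in all 4 classes.

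The share of the class that any pair of libraries had in common, the sum over segments of the smaller of both shares, was highest within naive Tregs. For Trbj it was between 83.4% and 84.1% among naive libraries, between 52.0% and 67.1% among CML libraries and between 61.6% and 78.0% across groups. Traj shares were 67.8% to 75.04% among naive, 44.5% to 56.7% among CML and 50.7% to 70.8% across groups. Trav gave 66.8% to 74.9%, 44.7% to 52.9% and 48.2% to 67.4%, and Trbv 83.6% to 90.8%, 64.5% to 84.8% and 66.7% to 87.9%, in the same order. CML libraries thus resembled each other less than they resembled naive libraries on average in every class (for Trbj 57.1% against 69.1%), a comparison that the low depth of CML replicates 2 and 3 enters.

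Within Traj, Traj12 took the largest share, 13.0% in CML and 13.9% in naive Tregs on average, followed by Traj21 with 11.5% and 8.64%. Traj12 was at 236, 184 and 371 RPKM in CML and 235, 288 and 422 RPKM in naive Tregs, and Traj21 at 359, 148 and 184 RPKM against 189, 126 and 281 RPKM. Both overlapped between groups (adjusted p = 0.769 and 0.889 by limma). Traj34 and Traj23, the other widely used segments, were led by single CML libraries, since Traj34 reached 229 RPKM in CML replicate 2 from 11 reads and Traj23 reached 350 RPKM in CML replicate 3 from 48 reads. Traj53 was lower in CML without overlap, with 4, 0 and 0 reads against 11, 7 and 8, and did not pass the threshold (log2 fold change -3.11 ± 0.90, adjusted p = 0.309 by limma). In all, 5 of 49 tested Traj segments were lower without overlap, where 12.2% of all features were, and 0 were higher, where 4.84% were.

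Along the locus, the Traj segments nearest to the V segments, the 25 from Traj59 to Traj31, took a larger part of the Traj reads in CML Tregs. They held 461 of 1057 reads (43.6%, 95% Clopper-Pearson interval 40.6% to 46.7%), 27 of 61 (44.3%, 31.5% to 57.6%) and 145 of 363 (39.9%, 34.9% to 45.2%) in CML replicates 1 to 3. In naive replicates 1 to 3 they held 230 of 683 (33.7%, 30.1% to 37.4%), 374 of 1044 (35.8%, 32.9% to 38.8%) and 416 of 1509 (27.6%, 25.3% to 29.9%). The groups did not overlap, with means of 42.6% ± 2.33 and 32.4% ± 4.28 (SD, n = 3), although the interval of CML replicate 2 held the values of naive replicates 1 and 2 and that of CML replicate 3 the value of naive replicate 2. Such intervals and floors cover counting error only, since copies made by amplification could not be told from separate molecules. The dividing point was chosen with the values known, and it was described without a test.

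**Figure D4:**
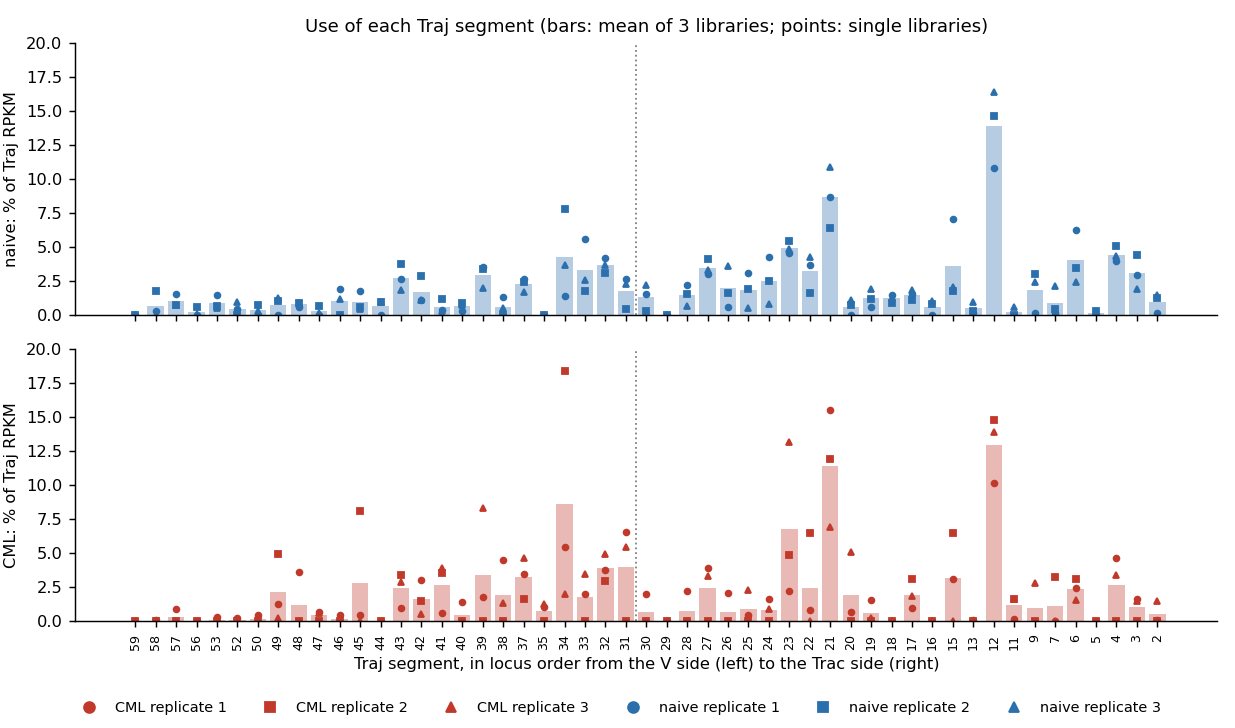
Share of the summed Traj RPKM (y axes, percent) taken by each of 51 Traj segments in locus order (x axis, V side left, Trac side right; the dotted line divides 25 from 26 segments) in naive (top, blue) and CML (bottom, red) Tregs. Bars are means of 3 libraries and points single libraries. Traj12 and Traj21 are tallest in naive and CML Tregs, and the segment Traj18 has no CML bar.

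Among the Trbj segments, 12 of 13 had a lower fitted level in CML Tregs, and 3 of 13 were lower without overlap, where 12.2% of all features were and the median over all features was itself -0.18. Trbj2-7 and Trbj2-1 led the class on average, with 25.1% and 16.6% of it in CML and 17.7% and 17.8% in naive Tregs. The CML mean of Trbj2-7 includes 42.3% in CML replicate 2, which had 22 Trbj reads. In CML replicate 1 another segment, Trbj1-3, led with 14.9%. Trbj2-7 was at 117, 231 and 223 RPKM in CML and 254, 294 and 225 RPKM in naive Tregs, where CML replicate 2 lay between the naive libraries (adjusted p = 0.596 by limma). Trbj2-1 was at 81.4, 121 and 210 RPKM in CML and 278, 312 and 199 RPKM in naive Tregs, and only CML replicate 3 overlapped (log2 fold change -1.01 ± 0.34, adjusted p = 0.395 by limma). Trbj1-1 was at 109, 50.3 and 0 RPKM in CML and 257, 181 and 53.4 RPKM in naive Tregs, and Trbj2-2 at 85, 70.9 and 77.2 RPKM against 170, 112 and 74.4 RPKM, both with overlap. Trbj1-7, like Trbj1-6, held no copy of the motif. Its level was 22.8, 0 and 47.5 RPKM in CML and 130, 114 and 89.2 RPKM in naive Tregs. All CML libraries were below all naive libraries for Trbj1-7, with a log2 fold change of -3.40 ± 1.25 (adjusted p = 0.446 by limma), which was -1.70 without CML replicate 2, the library with no reads on it, and -4.50 without CML replicate 3.

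The Trbj1 cluster, which lies before Trbc1, held 157 of 331 Trbj reads (47.4%, 95% Clopper-Pearson interval 41.9% to 53.0%), 2 of 22 (9.09%, 1.12% to 29.2%) and 32 of 127 (25.2%, 17.9% to 33.7%) in CML replicates 1 to 3. It held 39.3% (34.6% to 44.1%), 43.1% (39.4% to 46.8%) and 31.5% (27.5% to 35.6%) in naive replicates 1 to 3. CML replicate 1 was thus the highest and CML replicate 2 the lowest library, and the groups overlapped. The ratio of Trbc1 to Trbc2 was 0.833, 0.549 and 0.824 in CML and 0.807, 0.845 and 0.919 in naive Tregs, and CML replicate 2 was lowest there too.

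Among the Trbv segments, Trbv3 was the most used, with 16.0% of the class in CML and 18.8% in naive Tregs. It was at 83.3, 83.4 and 90.8 RPKM in CML and 154, 181 and 133 RPKM in naive Tregs, from 220, 24 and 72 against 277, 551 and 449 reads. These levels did not overlap and the CML libraries agreed closely, with a log2 fold change of -0.84 ± 0.17 (adjusted p = 0.158 by limma). As a share of the class Trbv3 did overlap. It took 14.4%, 18.8% and 14.9% in CML and 18.1%, 19.5% and 18.9% in naive Tregs. The summed Trbv level was also lower in CML, with a ratio of 0.657. No Trbv segment passed the threshold in limma, and 0 were higher and 5 lower at an unadjusted p under 0.05 with the same fold, where 2.61% and 5.94% of all features were. In all, 8 of 21 tested Trbv segments were lower in CML without overlap and 0 were higher, where 12.2% and 4.84% of all features were. By the fold change these were led by Trbv12-2, at 13.1, 0 and 14.1 RPKM against 24.4, 35.9 and 17.1 RPKM, and Trbv14, at 7.97, 0 and 3.79 RPKM against 8.91, 21.1 and 13.3 RPKM. CML replicate 2 had no reads on either, and without it the log2 fold change of Trbv12-2 moved from -2.10 to -0.82, level with the -0.82 of Trbv3, and that of Trbv14 from -2.06 to -1.16. Neither passed the threshold (adjusted p = 0.548 and 0.47 by limma). The others, named after their values were seen, were Trbv3, Trbv12-1, Trbv15, Trbv19, Trbv20 and Trbv31.

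The remaining leading Trbv segments overlapped between groups. Trbv5 was at 62.4, 56.6 and 117 RPKM in CML and 75.2, 128 and 75.5 RPKM in naive Tregs, and Trbv13-2 at 57.6, 56.7 and 51.5 RPKM against 62.4, 93.9 and 55.2 RPKM. Trbv16 was at 43.2, 66.0 and 54.2 RPKM in CML and 57.8, 51.9 and 34.3 RPKM in naive Tregs, the only one of the leading 4 with a fitted level higher in CML (log2 fold change 0.19 ± 0.26, adjusted p = 0.818 by limma), which turned to -0.029 without naive replicate 3. No Trbv segment exceeded 20% of its class in any library, as the largest share was 19.5% for Trbv3 in naive replicate 2.

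**Figure D5:**
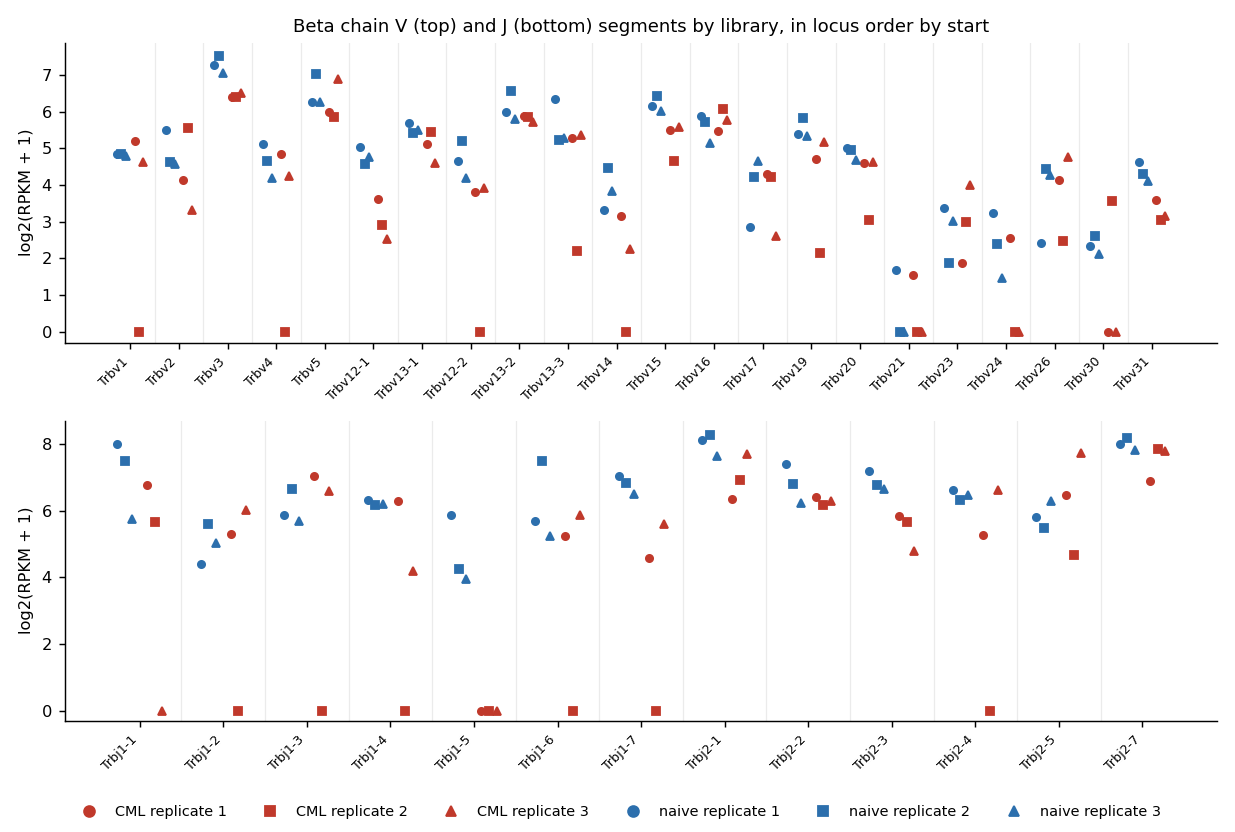
Level of each Trbv (top) and Trbj (bottom) segment as log2(RPKM + 1) (y axes) in naive (blue, left of each segment) and CML (red, right) libraries, in locus order by start (x axes). Points at 0 have no reads, which are mostly those of CML replicate 2. Trbj1-5 has 3 CML points at 0, and the CML points of Trbv3 all lie below the naive points.

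Among the Trav segments 0 passed the threshold in limma, 3 were higher and 4 lower at an unadjusted p under 0.05 with the same fold, where 2.61% and 5.94% of all features were. Of the 100 tested, 4 were higher in CML without overlap, where 4.84% of all features were, and 4 were lower, where 12.2% were. Trav14n-3, the most used Trav segment on average, was at 28.4, 20.04 and 44.8 RPKM in CML and 12.3, 7.90 and 12.8 RPKM in naive Tregs. Its log2 fold change was 1.37 ± 0.36 (adjusted p = 0.28 by limma), and 62.2% of its 76-base windows were its own. Trav9-1 was at 15.6, 25.1 and 20.8 RPKM in CML and 1.14, 8.46 and 13.7 RPKM in naive Tregs, and Trav7-5 at 9.58, 18.3 and 38.6 RPKM against 7.62, 2.77 and 8.42 RPKM. Neither passed the threshold (adjusted p = 0.496 and 0.441 by limma), and Trav7-5 was unique in all windows.

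Lower in CML without overlap were Trav12d-3, with 2, 0 and 3 reads against 21, 18 and 20, and Trav6d-5, with 4, 0 and 0 reads against 7, 9 and 16. Their adjusted p values were 0.37 and 0.353 (limma), and none of the windows of Trav12d-3 was its own, as other Trav12 segments share them. The other leading segments overlapped between groups, with Trav6-7-dv9 at 34.6, 19.7 and 7.13 RPKM in CML and 19.4, 20.8 and 13.4 RPKM in naive Tregs, Trav3-3 at 9.19, 10.6 and 20.4 RPKM against 23.0, 20.3 and 20.03 RPKM, and Trav9d-1 at 16.8, 57.4 and 10.4 RPKM against 1.15, 12.6 and 13.4 RPKM. The copies marked d or n took 57.9%, 55.8% and 43.0% of the Trav reads in CML and 51.8%, 49.8% and 49.2% in naive Tregs, with overlap. The largest share of any single Trav segment was 4.99%, 7.85% and 8.52% in CML replicates 1 to 3 and 4.90%, 4.70% and 2.89% in naive replicates 1 to 3, taken by 6 different segments.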

How the data were processed

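RNA of sorted BM Tregs from 3 CML and 3 naive mice was sequenced as single 76-base reads on a NextSeq 500 after SMART-Seq v4 preparation. The authors assembled and quantified the reads in SeqMan NGen and ArrayStar, and GRCm38 and mm10 are the builds in the submitters' processing notes. The deposited values are taken as RPKM, a unit read from the values, as the sources used here do not name it. A value of 0.001 marks no reads and was set to 0. The reads of 195 segments with any value were recovered as value times length over the step of 1 read (whole within 0.01 in every library), with the annotated length or, failing that, the shortest length from 250 to 499 bases (V) or 40 to 79 bases (J) that gave whole reads. A step was the smallest product of value and length, over small RNA genes, that recurred 5 times within 0.5%, refined on J segments. Reads are estimates.

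Groups and replicate numbers came from the sample labels, and p-values measure the spread between these libraries. A group without reads on a segment adds no spread. CML and naive Tregs were compared in limma 3.58.1 (R 4.3.3) on log2(RPKM + 1) over 13923 features with a mean of at least 1 RPKM, with a trended prior variance, all 6 libraries and Benjamini-Hochberg adjustment. The added 1 lowers the fold of low segments, whereas a value of 0 in a shallow library can enlarge it. For example, the log2 fold change of Traj33 went from -2.02 to -8.9e-05 without CML replicate 2. The code was tested on simulated data. The study's methods name a count test, which was not run as the values are not counts. Class sums, numbers and effective numbers were described without a test. Named segments were those past the threshold, the 4 most used per class, up to 3 per class and direction with reads in all libraries of only 1 group, the 2 largest folds per class and direction without overlap, and the NKT and MAIT segments. The members, lists and this rule were chosen with earlier results of these data known. Alternatives covered the pseudocount, filter, scaling, prior, weights, replicate block, definitions of use and each library left out. Gene models and sequences were from GENCODE M21.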

Additional observations from a re-analysis of the deposited data

How the results depend on the processing

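The 2 segments past the threshold became 0 with a pseudocount of 0.001, 0 with no filter and 0 with the replicate block, and 1 with a mean of at least 5 RPKM or no trend. They stayed at 2 with a pseudocount of 0.1, library weights, a common 75th percentile and quantile normalization. Leaving out each library gave 0 to 2, among them Traj35 as a higher segment without CML replicate 2. With the replicate block the 26 segments at an unadjusted p under 0.05 became 36, while 1190 of all 13923 features became 1122. The labels give the replicate numbers no shared source, and same-numbered libraries did not deviate together (correlations -0.005, -0.002 and -0.019). Leaving out each library gave 17 to 42 such segments. The highest was without CML replicate 1 (1778 of all features) and the lowest without naive replicate 2 (742 of all features). Log2 fold changes near 0 changed sign. That of Trav6-7-dv9 (-0.03) became 0.10 with quantile normalization, 0.041 with libraries set to a common 75th percentile and 0.36 with library weights. With each library left out it ranged from -0.52 to 0.55, that of Traj21 (0.18) from -0.19 to 0.47, that of Traj34 (0.60) from -0.054 to 1.16, that of Traj23 (-0.08) from -0.95 to 0.41 and that of Trbv16 (0.19) from -0.029 to 0.35. The difference in segments with reads, CML minus naive, was -23 for Trav, -8.06 at equal depth and -2 with subgroups counted once, -2.67 for Trbv and -5 with at least 3 reads required, and -3.33 for Trbj and 0 with subgroups counted once, as the class has only 2. With each library left out it ranged from -34 to -16.5 for Trav, from -20.8 to -8.33 for Traj, from -3.83 to -1.33 for Trbv and from -4.5 to -1.5 for Trbj. The difference in the effective number became -0.91 for Trav and -0.23 for Trbj with subgroups summed. That for Trbv went from -1.77 to -1.06 with subgroups summed and to -0.88 with the inverse Simpson index, and that for Traj from -8.40 to -5.15 with that index. The differences ranged from -25.9 to -13.9 for Trav, -11.4 to -5.34 for Traj, -3.09 to -0.40 for Trbv and -3.83 to -0.79 for Trbj with each library left out. On the log2 scale the class sums, divided by their constant genes, differed by -0.066 for Trav, -0.43 for Traj, -0.11 for Trbv and -0.33 for Trbj, compared with 0.15, -0.12, -0.61 and -0.79 as deposited, so that Traj then had the largest deficit. With each library left out the sums ranged from 0.04 to 0.23 for Trav, -0.34 to 0.15 for Traj, -0.71 to -0.48 for Trbv and -1.05 to -0.55 for Trbj. The log2 ratio of group means ranged from -0.79 to -0.67 for beta over alpha constant genes and from -0.95 to -0.62 for Trbv over Trav, and the difference in Traj reads on the V side from 7.86 to 11.99 percentage points. These last comparisons and their alternatives, and the draws without CML replicate 2, were chosen after seeing the data. The causes of these shifts were not tested. The few reads of CML replicate 2 limit every count of segments there.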
